A study of Homo sapiens with 4 samples.

Results

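The subject is the family of 8 genes that encode the pore-forming alpha-1 subunits of neuronal voltage-gated calcium channels: CACNA1A, CACNA1B, CACNA1C, CACNA1D, CACNA1E, CACNA1G, CACNA1H and CACNA1I. Their chromatin contacts were read from a table of pairs of 50 kb bins, and a pair was taken as belonging to a gene where at least 1 of its bins overlapped the gene body in the hg38 genome build. This gave 200 pairs of the 89239 listed, of which 54 are contacts within a single bin and 146 join different bins. The contacts were measured by Micro-C, which cuts chromatin with micrococcal nuclease and ligates fragments that lie close together, in SH-SY5Y, an established human neuroblastoma line. There were 2 libraries of cells with a stable TDP-43 knockdown (TDP43KD), made with a lentiviral shRNA against TDP-43, and 2 control libraries, for which the protocol names a construct called shNC in the same vector. The protocol gives puromycin at 2 µg/mL for 2 weeks and then 1 µg/mL for the knockdown cells, and does not say whether the lines are pools or clones. Nothing in the labels says that the 2 libraries of a group came from separate cultures, so the p-values rest on a spread among these 4 libraries that may be technical. Contact counts hold no RNA or protein level, so neither the knockdown nor the expression of the channel genes could be checked here.

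A voltage-gated calcium channel opens when the cell membrane depolarises and lets calcium into the cell, where it triggers transmitter release, muscle contraction, gene transcription or further excitation. The alpha-1 subunit carries the pore and the voltage sensors, and auxiliary beta and alpha-2-delta subunits set how many channels reach the membrane and how they gate. CACNA1C and CACNA1D encode L-type channels, CACNA1A, CACNA1B and CACNA1E encode the P/Q-, N- and R-type channels of nerve terminals and dendrites, and CACNA1G, CACNA1H and CACNA1I encode T-type channels that open at low voltage. In sympathetic neurons, the lineage that neuroblastoma is related to, N-type channels carry much of the calcium that releases noradrenaline. TDP-43, encoded by TARDBP, is a nuclear protein that binds UG-rich RNA and TG-rich DNA.

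The RefSeq promoter table (GRCh38.p14, 250 bases before to 50 after the start it lists for a gene) held 6 of the 8 genes, and CACNA1G and CACNA1H had no entry. Of these, 3 are shown as examples: the start bins of CACNA1B and CACNA1E had fewer contacts in TDP43KD libraries, and that of CACNA1D did not pass the test. Among the promoters not shown, the start bin of CACNA1I also had fewer contacts, and those of CACNA1A and CACNA1C did not pass. Capitals mark each CG dinucleotide and, in CACNA1E, 1 match to the hexamer GTGTGT, a TG repeat of the kind TDP-43 binds, which reads ACACAC on the strand shown. All 3 are on the plus strand and run 5′ to 3′, at chr9:137877532-137877831, chr3:53494361-53494660 and chr1:181483267-181483566.
CACNA1B: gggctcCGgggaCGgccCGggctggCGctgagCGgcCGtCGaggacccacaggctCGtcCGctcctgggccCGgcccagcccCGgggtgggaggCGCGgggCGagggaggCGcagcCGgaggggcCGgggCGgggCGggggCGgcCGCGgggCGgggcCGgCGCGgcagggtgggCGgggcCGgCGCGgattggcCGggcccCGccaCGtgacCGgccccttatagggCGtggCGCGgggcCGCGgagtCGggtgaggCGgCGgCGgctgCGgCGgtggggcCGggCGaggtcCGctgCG
CACNA1D: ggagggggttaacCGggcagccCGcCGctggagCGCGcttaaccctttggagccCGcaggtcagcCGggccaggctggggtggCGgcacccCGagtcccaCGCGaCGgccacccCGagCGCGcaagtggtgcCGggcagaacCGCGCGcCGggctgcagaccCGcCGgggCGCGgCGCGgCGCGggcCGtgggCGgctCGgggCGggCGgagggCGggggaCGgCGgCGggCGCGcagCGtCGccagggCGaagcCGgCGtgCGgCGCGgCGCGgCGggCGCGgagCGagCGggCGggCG
CACNA1E: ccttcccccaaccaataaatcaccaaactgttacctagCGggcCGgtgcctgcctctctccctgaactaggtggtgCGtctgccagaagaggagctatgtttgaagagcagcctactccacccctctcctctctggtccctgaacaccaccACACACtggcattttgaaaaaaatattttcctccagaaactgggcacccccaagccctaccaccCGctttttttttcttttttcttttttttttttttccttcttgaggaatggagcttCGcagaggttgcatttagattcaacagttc
The CACNA1B and CACNA1D promoters hold 49 and 56 CG dinucleotides, and the CACNA1E promoter holds 5, against a median of 22 over the 15842 protein-coding promoters in the table. Of the others, CACNA1C holds 54, CACNA1A 21 and CACNA1I 6. The hexamer, searched on both strands and overlapping no CG, is in CACNA1E alone of the 6 promoters, and 11.9% of all promoters in the table hold it. These are descriptions of the letters in 300 bases; the contact bins are far wider than a promoter.

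The listed contacts summed to 115168160 and 142424414 in the TDP43KD libraries and to 158400914 and 163147992 in the control libraries. The table holds the more abundant pairs only, so these sums are not the full depth. Levels below are edgeR's CPM, contacts relative to library sizes scaled by TMM, and changes are log2 fold changes of TDP43KD over control from edgeR's quasi-likelihood test, with p-values adjusted over all listed pairs and a threshold of 0.05. In the whole table, abundant bins had lower fold changes: over all 48992 within-bin contacts, Pearson's r between log2 fold change and log2 CPM was -0.51 across bins. For that reason results are also given from a fit in which a loess curve per library takes out this dependence on abundance, called trend removed below; the fold changes in the authors' deposited table lie within 0.0031 of that fit. Over the 54 within-bin contacts of the 8 genes the same correlation was -0.77 with TMM and -0.40 with the trend removed, across bins that share libraries and genes and are not independent. Bins within 5 Mb of a chromosome's start or of its last listed bin also stood apart, with 30.2% of their pairs lower in TDP43KD cells against 7.58% elsewhere, and CACNA1B, CACNA1C and CACNA1H lie in such regions. The part of abundance or of chromosome ends in the changes below was not tested.

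Of the 200 pairs of calcium channel genes, 48 differed between TDP43KD and control cells, 10 being higher and 38 lower in TDP43KD cells. That is 24.0% of the pairs, against 16.2% of all listed pairs, and the directions compare with 5.76% higher and 10.5% lower in the whole table. Once the abundance trend was removed, 43 differed, 15 higher and 28 lower, against 11.0% of all pairs (4.97% higher and 5.99% lower). Among within-bin contacts, 26 of 54 differed, 6 higher and 20 lower, against 21.7% of all within-bin contacts (7.4% higher and 14.3% lower). In the trend-removed fit 22 of them differed, 12 higher and 10 lower, against 13.0% (7.87% higher and 5.13% lower). The balance of directions within bins thus depended on the scaling. Both TDP43KD libraries lay above both control libraries in 13 of the 54 bins and below both in 30, against 31.4% and 28.5% of all within-bin contacts. Among contacts between bins, 22 of 146 differed, 4 higher and 18 lower, against 9.6% of all between-bin pairs (3.76% higher and 5.84% lower), and all 18 lower ones belonged to CACNA1G or CACNA1H. Where both bins lay on the gene, 5 of 74 differed (6.76%), below the share of all between-bin pairs. Where 1 bin lay on the gene, 17 of 72 differed (23.6%). In the trend-removed fit 21 of the 146 differed, 3 higher and 18 lower, against 8.47% (1.43% higher and 7.04% lower). There 3 of the 74 pairs with both bins on the gene differed (4.05%), and 18 of the 72 with 1 bin on it (25.0%). The median log2 fold change was -0.03 over the 200 pairs, against 0.02 over all pairs. The numbers of calls rest on both TDP43KD libraries: 20 pairs passed without TDP43KD replicate 1 and 29 without TDP43KD replicate 2.

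**Figure D1:**
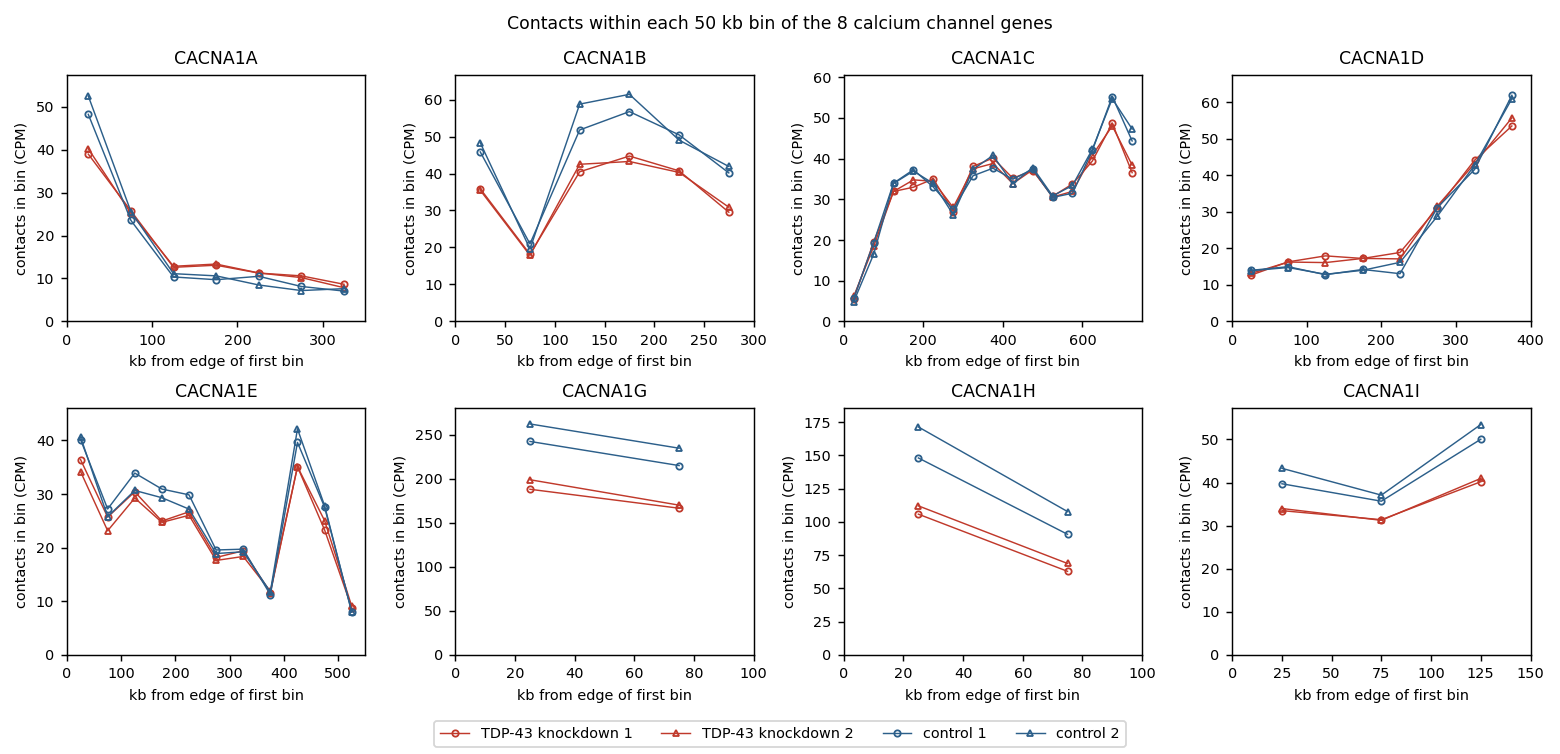
Contacts within each 50 kb bin along the 8 genes, in CPM on TMM-scaled library sizes, by distance from the edge of the first bin in kb; each line is 1 library (n = 2 TDP43KD in red, n = 2 control in blue). TDP43KD libraries lie below control libraries in every bin of CACNA1B, CACNA1G, CACNA1H and CACNA1I and above them in the middle bins of CACNA1A and CACNA1D.

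CACNA1D, the L-type gene whose channel drives pacemaking in the sinoatrial node and transmission from inner hair cells, gained contacts in adjoining bins inside its body. The gene lies at chr3:53494611-53813733 on the plus strand, in 8 bins. The bin chr3:53550001-53600000 had 17.9 and 16.1 CPM in TDP43KD libraries, against 12.8 and 12.9 CPM in control libraries, a change of 0.41 on the log2 scale (SE 0.08, adjusted p = 1.77e-05). The next bins, chr3:53600001-53650000 and chr3:53650001-53700000, rose by 0.29 (adjusted p = 0.00283) and 0.30 (adjusted p = 0.00227). In all 3 bins both TDP43KD libraries lay above both control libraries, and all 3 kept their call with the trend removed (0.42, 0.31 and 0.32). The bins after them, chr3:53700001-53750000 and chr3:53750001-53800000, did not pass with TMM (0.06 and 0.05). With the trend removed they passed as higher, by 0.17 (adjusted p = 0.029) and 0.23 (adjusted p = 0.000156). The start bin, chr3:53450001-53500000, had 12.6 and 13.1 CPM in TDP43KD libraries, against 13.97 and 13.9 CPM in control libraries, and did not pass (-0.11, adjusted p = 0.379).

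Contacts between neighbouring bins of CACNA1D also rose. The pair that joins chr3:53500001-53550000 to chr3:53550001-53600000 had 2.78 and 2.63 CPM in TDP43KD libraries, against 1.48 and 1.47 CPM in control libraries, the largest change of any CACNA1D pair (0.88, SE 0.21, adjusted p = 0.000774; trend removed 0.79, adjusted p = 0.00474). The pair between chr3:53600001-53650000 and chr3:53650001-53700000 had 2.37 and 2.53 CPM in TDP43KD libraries, against 1.28 and 1.52 CPM in control libraries (0.81, SE 0.22, adjusted p = 0.00354; trend removed 0.72). All 8 listed pairs with both bins on the gene were positive, although the other 6 did not pass. The bin of the transcript end, chr3:53800001-53850000, also holds CHDH (choline dehydrogenase) and IL17RB (a cytokine receptor). It had 53.5 and 55.7 CPM in TDP43KD libraries, against 61.9 and 60.9 CPM in control libraries. It fell by 0.17 with TMM (adjusted p = 0.0196) and was at 0.0685 with the trend removed (adjusted p = 0.306), so its direction depended on the scaling. Of the 6 CACNA1D calls, 1 was left without TDP43KD replicate 1 and 3 without TDP43KD replicate 2; the largest pair then had an adjusted p of 0.0537 in the first case, and the last bin passed in neither (adjusted p = 0.427 and 0.171).

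CACNA1C, the L-type gene of heart, smooth muscle and brain and the longest of the 8, changed little along its body. It lies at chr12:1970780-2697950, in 15 bins, with the start used in the promoter table at 2052987. Fold changes of its bins ran from -0.29 to 0.15 with TMM, and 2 of the 15 bins passed. The bin of the transcript end, chr12:2650001-2700000, had 36.5 and 38.4 CPM in TDP43KD libraries, against 44.3 and 47.3 CPM in control libraries (-0.29, SE 0.06, adjusted p = 1.9e-05), and the bin before it fell by 0.19 (adjusted p = 0.0097). Neither passed with the trend removed (-0.12 and 0.03); 3 bins in the middle of the gene then passed as higher instead, with 0.18, 0.19 and 0.17, and 14 of the 15 were positive. The start bin, chr12:2050001-2100000, had 31.9 and 31.9 CPM in TDP43KD libraries, against 34.0 and 33.9 CPM in control libraries, and did not pass (-0.09, adjusted p = 0.326; trend removed 0.03).

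Contacts that join bins of CACNA1C included 2 that rose. The pair between the last bin of the gene and the bin beyond it, chr12:2700001-2750000, had 2.74 and 2.74 CPM in TDP43KD libraries, against 1.67 and 1.71 CPM in control libraries (0.70, SE 0.20, adjusted p = 0.00821; trend removed 0.61, adjusted p = 0.0304). The pair between chr12:2400001-2450000 and chr12:2500001-2550000 had 2.92 and 3.22 CPM in TDP43KD libraries, against 1.83 and 2.26 CPM in control libraries (0.59, SE 0.19, adjusted p = 0.0198), and had an adjusted p of 0.0596 once the trend was removed. Across the 39 between-bin pairs of the gene 31 were positive, with a median of 0.18, against 0.02 over all between-bin pairs. Of the 4 CACNA1C calls, 0 were left without TDP43KD replicate 1, 1 without TDP43KD replicate 2, and 10 pairs passed without control replicate 2. The pair at the end of the gene still had a fold change of 0.70 without either TDP43KD library, with an adjusted p of 0.125 and 0.109.

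CACNA1A, which encodes the P/Q-type channel that triggers release at most central synapses and is mutated in episodic ataxia and familial hemiplegic migraine, had fewer contacts at its transcript end and more in its interior. The gene lies at chr19:13206442-13506479 on the minus strand, so its end is at the lower coordinate. The end bin, chr19:13200001-13250000, had 39.0 and 40.2 CPM in TDP43KD libraries, against 48.2 and 52.5 CPM in control libraries (-0.35, SE 0.06, adjusted p = 1.78e-07). The bin chr19:13450001-13500000, next to the start bin, had 10.6 and 10.2 CPM in TDP43KD libraries, against 8.13 and 7.18 CPM in control libraries (0.44, SE 0.10, adjusted p = 0.000269). The bins chr19:13350001-13400000 and chr19:13300001-13350000 rose by 0.38 (adjusted p = 0.000416) and 0.24 (adjusted p = 0.0371). In each of these bins the 2 groups of libraries did not overlap.

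The end bin of CACNA1A stayed lower in the trend-removed fit (-0.16, adjusted p = 0.00998), and 2 of the 3 interior bins stayed higher (0.42 and 0.38), the bin at 13300001 missing the threshold (adjusted p = 0.0662). The start bin, chr19:13500001-13550000, had 8.64 and 7.85 CPM in TDP43KD libraries, against 7.06 and 7.62 CPM in control libraries, and did not pass (0.17, adjusted p = 0.3). The end bin was the most abundant of the 7 in control libraries and the start bin the least. The largest fold change of any CACNA1A pair, 0.57 between chr19:13350001-13400000 and chr19:13400001-13450000, rested on 2 low levels, 2.09 ± 0.08 CPM in TDP43KD and 1.41 ± 0.03 CPM in control libraries (SD, n = 2 each), and did not pass (adjusted p = 0.0615). Among its 9 between-bin pairs 0 passed by edgeR or by DESeq2, and 1 had an unadjusted p under 0.05.

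CACNA1B, which encodes the N-type channel blocked by the cone snail toxin omega-conotoxin, had fewer contacts in nearly its whole body. It lies at chr9:137877782-138124619 on the plus strand, 50 kb from the last listed bin of the chromosome. Within-bin contacts fell in 5 of its 6 bins, by 0.30 to 0.44. The bin of the transcript end, chr9:138100001-138150000, had 29.5 and 30.9 CPM in TDP43KD libraries, against 40.2 and 41.9 CPM in control libraries (-0.44, SE 0.06, adjusted p = 8.47e-11; trend removed -0.30, adjusted p = 1.53e-06), which was also the largest change of any CACNA1B pair. The start bin, chr9:137850001-137900000, had 35.9 and 35.5 CPM in TDP43KD libraries, against 45.8 and 48.3 CPM in control libraries (-0.40, SE 0.06, adjusted p = 1.66e-09; trend removed -0.23, adjusted p = 0.00013). With the trend removed 4 of the 6 bins passed, all lower, and in all 6 bins both TDP43KD libraries lay below both control libraries.

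The bin after the start bin of CACNA1B was the exception. It had 18.2 and 17.9 CPM in TDP43KD libraries, against 21.0 and 19.6 CPM in control libraries (-0.17, adjusted p = 0.0781), and it was the least abundant of the 6. Among the 17 between-bin pairs of CACNA1B 0 passed by edgeR or by DESeq2 and 1 had an unadjusted p under 0.05, with a median change of -0.08. Of the pairs near the gene but not on it, with both bins within 2.5 Mb of its middle, 33.0% of 209 between-bin pairs and 95.8% of 48 within-bin contacts were lower, a difference that was not tested. With TMM the within-bin contacts near the gene had a median of -0.51, below all 6 bins of CACNA1B itself. With the trend removed that median was -0.17, against a median of -0.21 over the 6 bins of CACNA1B, so the order depended on the scaling.

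CACNA1E, the R-type gene, had fewer contacts in 4 of its 11 bins with TMM, and the fall at its start bin was the 1 call left with the trend removed. The gene lies at chr1:181317699-181808084 on the plus strand, so its body begins in the bin chr1:181300001-181350000. The start in the promoter table, 181483517, lies inside the body, in the bin chr1:181450001-181500000, which is the start bin here. That bin had 25.0 and 24.7 CPM in TDP43KD libraries, against 30.9 and 29.3 CPM in control libraries (-0.28, SE 0.06, adjusted p = 0.000259; trend removed -0.19, adjusted p = 0.0187), the largest within-bin change of the gene. The bins chr1:181300001-181350000, chr1:181700001-181750000 and chr1:181750001-181800000 fell by 0.19, 0.22 and 0.20 with TMM and were at -0.05, -0.07 and -0.12 with the trend removed, none of which passed. The bin of the transcript end had 8.81 and 9.07 CPM in TDP43KD libraries, against 8.08 and 7.96 CPM in control libraries, and did not pass (0.16, adjusted p = 0.308). Among the 21 between-bin pairs 0 passed by edgeR or by DESeq2 and 1 had an unadjusted p under 0.05. The largest, 0.42 between chr1:181200001-181250000 and chr1:181350001-181400000, had an adjusted p of 0.161. Without TDP43KD replicate 1, and likewise without TDP43KD replicate 2, 1 of the 4 calls was left.

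**Figure D2:**
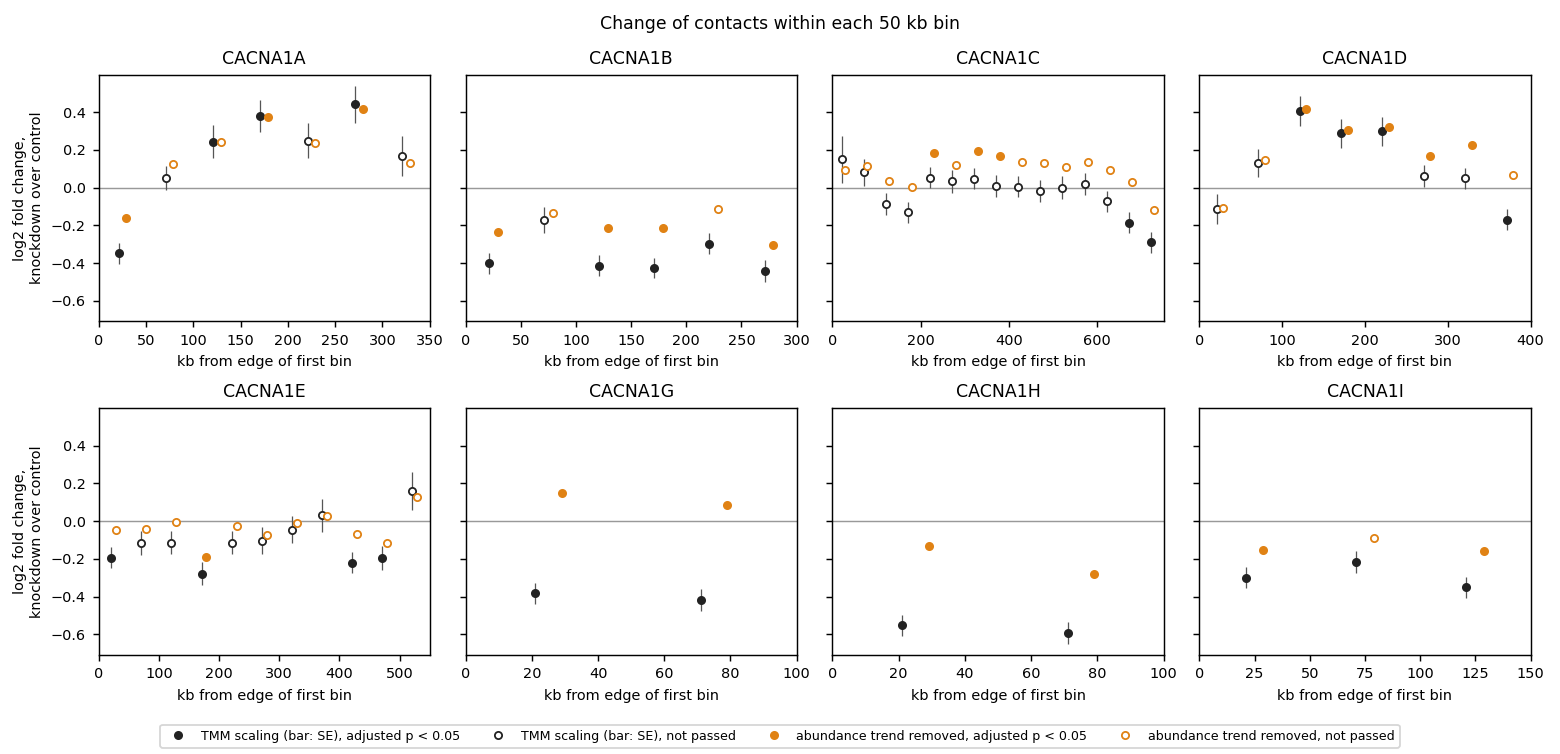
Log2 fold change (TDP43KD over control) of contacts within each 50 kb bin, by distance from the edge of the first bin in kb; black points are the TMM fit with SE bars, orange points the fit with the abundance trend removed, filled where adjusted p is under 0.05 (n = 2 libraries a group). Both bins of CACNA1G lie near -0.4 with TMM and above 0 with the trend removed, while all bins of CACNA1B and CACNA1H are below 0 in both fits.

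CACNA1H, a T-type gene expressed in sensory neurons and in the adrenal zona glomerulosa, had fewer contacts across its locus: all 24 of its listed pairs had a negative fold change, and 14 passed with TMM and 15 with the trend removed. The gene lies at chr16:1153106-1221768, 1150 kb from the first listed bin of the chromosome, and spans 2 bins. The bin chr16:1150001-1200000 had 106 and 112 CPM in TDP43KD libraries, against 148 and 171 CPM in control libraries (-0.55, SE 0.06, adjusted p = 1.67e-15; trend removed -0.13, adjusted p = 0.00165). The bin chr16:1200001-1250000, which also holds the tryptase genes TPSG1, TPSB2 and TPSAB1, had 62.8 and 68.7 CPM in TDP43KD libraries, against 90.7 and 108 CPM in control libraries (-0.59, SE 0.06, adjusted p = 4.45e-17; trend removed -0.28, adjusted p = 2.98e-09). In both bins the groups of libraries did not overlap.

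The largest change of any of the 200 pairs was between chr16:1150001-1200000 and chr16:1250001-1300000, the bin of the tryptase gene TPSD1. This pair had 3.12 and 3.44 CPM in TDP43KD libraries, against 6.23 and 6.06 CPM in control libraries (-0.90, SE 0.14, adjusted p = 2.96e-08), and its fall was about as large with the trend removed (-0.97, adjusted p = 1.59e-08). Of the 15 listed pairs that join CACNA1H to bins towards the chromosome end, over distances up to 450 kb, 10 fell with TMM and 10 with the trend removed, and the other 5 had negative fold changes that did not pass. The pair that joins chr16:1150001-1200000 to chr16:700001-750000, a bin with FBXL16 and METRN among others, had 1.39 and 1.44 CPM in TDP43KD libraries, against 1.93 and 2.69 CPM in control libraries (-0.71, SE 0.22, adjusted p = 0.0146). The pair to chr16:1050001-1100000, the bin of the somatostatin receptor gene SSTR5, had 5.87 and 6.73 CPM in TDP43KD libraries, against 8.32 and 9.23 CPM in control libraries (-0.47, SE 0.11, adjusted p = 0.000356). The pair between the 2 bins of the gene fell by 0.37 (adjusted p = 0.000962; trend removed -0.37).

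The surroundings of CACNA1H moved the same way. Of 218 between-bin pairs near the gene but not on it 26.1% were lower, against 12 of the 22 between-bin pairs on the gene (54.5%), and their medians were -0.26 near the gene and -0.45 on it. No test of that difference was made, since neighbouring pairs are not independent. The sums over bins given next are on the whole-gene scale described below, which gives lower CPM than the single bins above. Summed over its bins, the 2 control libraries of CACNA1H had 193 and 224 CPM, the widest relative gap between control libraries among the 8 genes, and the number of calls followed the libraries kept: 6 without TDP43KD replicate 1, 10 without TDP43KD replicate 2, 19 without control replicate 1 and 8 without control replicate 2. All of these calls were lower in TDP43KD cells.

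CACNA1G, the T-type gene of thalamic relay neurons, where its current drives burst firing, changed direction in its gene body with the scaling. It lies at chr17:50560715-50627474 in 2 bins that it shares with SPATA20 and with ABCC3, a gene for an organic anion transporter, and these are the most abundant bins of the family. The bin chr17:50550001-50600000 had 188 and 199 CPM in TDP43KD libraries, against 243 and 263 CPM in control libraries, and the bin chr17:50600001-50650000 had 167 and 170 CPM in TDP43KD libraries, against 215 and 235 CPM in control libraries. With TMM both fell, by 0.38 (SE 0.06, adjusted p = 1.37e-08) and 0.42 (SE 0.06, adjusted p = 4.9e-10). With the trend removed both were higher, by 0.15 (adjusted p = 1.51e-05) and 0.0855 (adjusted p = 0.0296), so no direction can be given for the gene body.

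Of the 11 listed pairs that join 1 bin of CACNA1G to higher coordinates, 5 fell in both fits and the other 6 passed in neither. The pair from chr17:50550001-50600000 to chr17:50750001-50800000, the bin of the splicing factor gene LUC7L3, had 2.27 and 2.24 CPM in TDP43KD libraries, against 4.15 and 3.12 CPM in control libraries (-0.69, SE 0.18, adjusted p = 0.00217; trend removed -0.76, adjusted p = 0.000827). From the same bin, the pair to chr17:50800001-50850000, the bin of WFIKKN2, had 2.97 and 3.16 CPM in TDP43KD libraries, against 3.75 and 4.82 CPM in control libraries (-0.48, SE 0.16, adjusted p = 0.0208; trend removed -0.56). The pair to chr17:50650001-50700000 fell by 0.30 (adjusted p = 0.00377; trend removed -0.29). The pairs of both CACNA1G bins with chr17:50900001-50950000 fell by 0.62 (adjusted p = 0.0408) and 0.69 (adjusted p = 0.0209).

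The last of these, with the largest fold change of the gene, had 1.11 and 1.54 CPM in TDP43KD libraries, against 2.44 and 1.86 CPM in control libraries. Its groups did not overlap, and it did not pass with DESeq2 (adjusted p = 0.0569), with TMM within distance classes (adjusted p = 0.0543), without TDP43KD replicate 1 (adjusted p = 0.411) or without control replicate 1 (adjusted p = 0.172). Of the 8 CACNA1G calls, 5 passed with DESeq2, 2 were left without TDP43KD replicate 1 and 4 without TDP43KD replicate 2. Near the gene but not on it, 4.95% of 182 between-bin pairs were lower and 7.69% higher, against 6 lower and 0 higher of the 18 between-bin pairs of CACNA1G.

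CACNA1I, the T-type gene of the thalamic reticular nucleus, had fewer contacts in all 3 of its bins with TMM. It lies at chr22:39570753-39689735 on the plus strand. The bin of the transcript end, chr22:39650001-39700000, had 40.2 and 41.0 CPM in TDP43KD libraries, against 50.1 and 53.5 CPM in control libraries (-0.35, SE 0.06, adjusted p = 1.08e-07; trend removed -0.16, adjusted p = 0.00943), the largest change of any CACNA1I pair. The start bin, chr22:39550001-39600000, had 33.5 and 34.0 CPM in TDP43KD libraries, against 39.7 and 43.3 CPM in control libraries (-0.30, SE 0.06, adjusted p = 1.03e-05; trend removed -0.15, adjusted p = 0.0287). The middle bin fell by 0.22 with TMM (adjusted p = 0.00318) and missed the threshold once the trend was removed (-0.09, adjusted p = 0.277). In each bin both TDP43KD libraries lay below both control libraries, and of the 9 between-bin pairs 0 passed by edgeR or by DESeq2 and 0 had an unadjusted p under 0.05. Within-bin contacts near the gene but not on it were lower in 52.1% of 94 cases with TMM and in 17.0% with the trend removed.

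**Figure D3:**
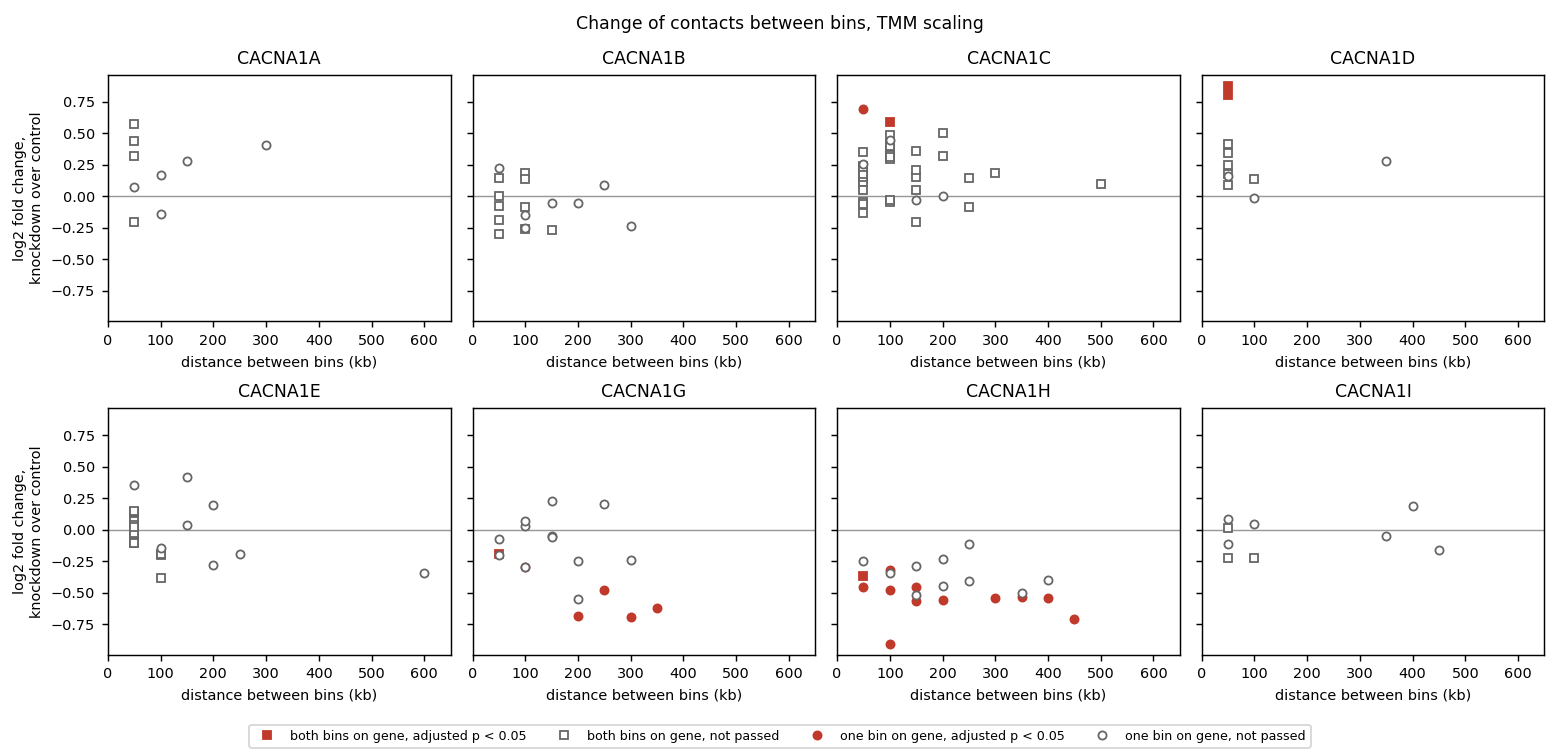
Log2 fold change (TDP43KD over control, TMM) of contacts between different bins, by the distance between the bins in kb; squares have both bins on the gene and circles 1 bin, and filled red symbols have an adjusted p under 0.05 (n = 2 libraries a group). Calls below 0 belong to CACNA1G and CACNA1H, and calls above 0 to CACNA1C and CACNA1D.

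Each gene was set beside its neighbourhood. For CACNA1A, 3 of 16 pairs (18.8%) were higher and 1 (6.25%) lower, against 1.89% higher and 19.2% lower of 265 nearby pairs. For CACNA1D, 5 of 19 (26.3%) were higher and 1 (5.26%) lower, against 18.8% and 12.1% of 207 nearby pairs, so its rise lay in a neighbourhood with many higher pairs. Its within-bin contacts were higher in 37.5% of 8, close to 34.8% of 92 nearby, and its between-bin pairs in 18.2% of 11, against 6.09% of 115. With the trend removed 5 of its 8 within-bin contacts were higher, against 34.8% nearby. CACNA1C had 3.70% of its pairs higher and as many lower, against 1.6% higher and 12.8% lower nearby. The other 5 genes had 0 higher pairs by edgeR with TMM. CACNA1I had 25.0% lower, against 23.6% lower and 3.11% higher nearby, and CACNA1E 12.5% lower, against 9.92% lower and 2.07% higher nearby. CACNA1B had 21.7% lower, against 44.7% lower and 0.0% higher nearby. CACNA1G had 40.0% lower, against 11.2% lower and 12.2% higher nearby, and CACNA1H 58.3% lower, against 41.7% lower and 0.694% higher nearby. In the trend-removed fit the nearby shares of lower pairs were smaller for 7 of the 8 genes and that of CACNA1B larger. There CACNA1A had 2 pairs higher and 1 lower of 16, against 1.13% higher and 4.53% lower nearby, and CACNA1D 7 higher and 0 lower of 19, against 17.9% and 4.35%. CACNA1C had 4 higher and 0 lower of 54, against 1.06% and 4.79%, and CACNA1E 0 higher and 1 lower of 32, against 4.55% and 1.65%. CACNA1I had 0 higher and 2 lower of 12, against 1.78% and 10.2%, and CACNA1B 0 higher and 4 lower of 23, against 0.0% and 49.4%. CACNA1G had 2 higher and 5 lower of 20, against 17.6% and 3.24%, and CACNA1H 0 higher and 15 lower of 24, against 0.694% and 36.5%. These shares mix abundant within-bin contacts with sparser pairs in proportions that differ between genes, and they were not tested against each other.

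**Figure D4:**
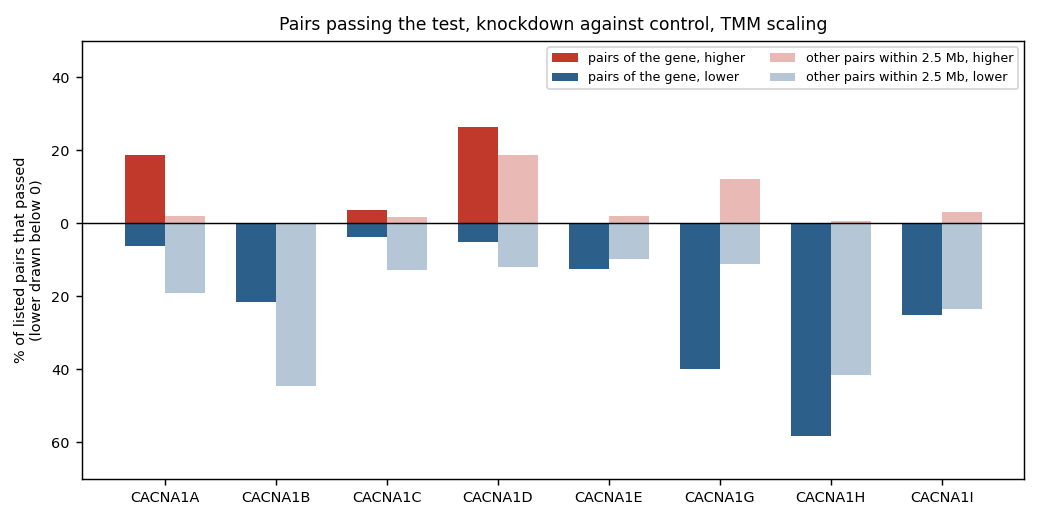
Share of listed pairs that passed the test with TMM (percent), higher in TDP43KD drawn above 0 and lower drawn below 0, for the pairs of each gene (dark bars) and for other pairs with both bins within 2.5 Mb of its middle (pale bars). CACNA1A and CACNA1D have higher pairs at 18.8% and 26.3%, and CACNA1H has lower pairs at 58.3%.

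The start bin was set against the median of the other bins of the same gene, for the 6 members with a start in the promoter table. In CACNA1C and CACNA1E that start lies inside the gene body and not in its first bin. With TMM its log2 fold change was below that median in 5 of 6, by 0.24 in CACNA1D, 0.16 in CACNA1E, 0.10 in CACNA1C, 0.08 in CACNA1A and 0.02 in CACNA1I, and was 0.01 above it in CACNA1B. The differences in CACNA1A, CACNA1B and CACNA1I are smaller than the SE of the start bin itself (0.11, 0.06 and 0.06). In the trend-removed fit all 6 differences were negative, CACNA1B being at -0.02. Over all 3497 genes with 3 or more listed bins the difference was negative in 68.5% with TMM and in 66.1% with the trend removed, with medians of -0.09 and -0.06. The medians of the 6 members were -0.09 and -0.10.

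Summed over the bins of each gene, 2 of the 8 genes had more within-bin contacts in TDP43KD cells and 4 had fewer, with p-values adjusted over 18697 protein-coding genes, of which 49.0% passed (22.6% higher and 26.4% lower). The CPM of whole genes are relative to library totals over all gene sums, in which a bin shared by several genes counts for each. These totals are larger than those of the listed pairs, so whole-gene CPM are lower than the sum of the single-bin CPM above. CACNA1D had 187 and 185 CPM in TDP43KD libraries, against 165 and 164 CPM in control libraries (0.18, SE 0.04, adjusted p = 0.00124). CACNA1A had 107 and 106 CPM in TDP43KD libraries, against 95.2 and 98.7 CPM in control libraries (0.14, SE 0.05, adjusted p = 0.0125). The lower genes were CACNA1H (-0.44, SE 0.05, adjusted p = 7.39e-08), CACNA1G (-0.27, SE 0.04, adjusted p = 6.35e-06), CACNA1B (-0.25, SE 0.04, adjusted p = 2.93e-05) and CACNA1I (-0.17, SE 0.05, adjusted p = 0.00358). CACNA1C (0.08, adjusted p = 0.0883) and CACNA1E (-0.01, adjusted p = 0.802) did not pass.

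The whole-gene result depended on the scaling and on single libraries. The gene table's TMM puts the median of all genes at 0.02 and the pair table's scaling puts it at -0.11, a shift of over 0.1. On the pair table's scale 0 members were higher by edgeR, also at an unadjusted p under 0.05, and 5 were lower, CACNA1E joining the lower ones (-0.14, adjusted p = 0.0161), against 50.2% of all genes (5.46% higher and 44.7% lower). With the trend removed per bin before summing, 4 were higher, CACNA1D (0.17), CACNA1G (0.12), CACNA1C (0.09) and CACNA1A (0.09), and 3 lower, CACNA1B (-0.20), CACNA1H (-0.19) and CACNA1I (-0.14), against 27.1% of all genes (12.1% higher and 14.9% lower). CACNA1B, CACNA1H and CACNA1I were lower under these 3 scalings, CACNA1G turned, and none of the 3 made CACNA1D or CACNA1A lower. On the pair table's scale, however, neither gene passed: CACNA1D was at 0.0489 (adjusted p = 0.455) and CACNA1A at 0.0074 (adjusted p = 0.921). Another setting, loess on the gene sums themselves, gave 4 higher and 1 lower: CACNA1H stayed lower (-0.22), CACNA1B (-0.02, adjusted p = 0.554), CACNA1I (-0.01, adjusted p = 0.84) and CACNA1G (-0.03, adjusted p = 0.501) did not pass, and CACNA1C (0.33) and CACNA1E (0.21) were higher, beside CACNA1D and CACNA1A. Without TDP43KD replicate 1, CACNA1B and CACNA1H passed. Without TDP43KD replicate 2, CACNA1B, CACNA1G and CACNA1H passed. CACNA1A and CACNA1D passed in neither case, while their fold changes moved little: CACNA1A was at 0.13 (adjusted p = 0.201) and 0.14 (adjusted p = 0.178), and CACNA1D at 0.17 (adjusted p = 0.14) and 0.18 (adjusted p = 0.101).

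Per bin, the level of within-bin contacts was highest in CACNA1G and lowest in CACNA1A. These levels are the whole-gene CPM divided by the number of bins, and cannot be set beside the CPM of single bins given earlier. In TDP43KD libraries the means ± SD per bin (n = 2) were 160 ± 3.74 CPM for CACNA1G and 77.1 ± 3.43 CPM for CACNA1H, against 193 ± 9.94 and 104 ± 10.8 CPM in control libraries. CACNA1B had 30.9 ± 0.06 CPM in TDP43KD and 36.6 ± 0.98 CPM in control libraries, and CACNA1I 31.1 ± 0.09 CPM in TDP43KD and 34.8 ± 1.35 CPM in control libraries. CACNA1C followed with 28.9 ± 0.16 CPM in TDP43KD and 27.3 ± 0.02 CPM in control libraries. CACNA1E had 20.7 ± 0.45 CPM in TDP43KD and 20.9 ± 0.48 CPM in control libraries, CACNA1D 23.3 ± 0.21 CPM in TDP43KD and 20.6 ± 0.10 CPM in control libraries, and CACNA1A, the lowest, 15.2 ± 0.07 CPM in TDP43KD and 13.9 ± 0.36 CPM in control libraries. In control libraries the ranges of CACNA1E and CACNA1D overlapped, and the means of CACNA1B and CACNA1I differed by less than the sum of their SDs. These last 2 genes changed order in TDP43KD libraries, as did CACNA1D and CACNA1E. These are contact levels of bins, some of which hold other genes, and not expression.

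Genes that work with these channels were counted from lists of 18 other alpha-1 and auxiliary subunit genes, 31 active-zone partners and calcium sensors, and 10 sodium channel genes, all from the whole-gene fit. Over all genes 22.6% were higher and 26.4% lower with TMM, 12.1% and 14.9% with the trend removed per bin, and 5.46% and 44.7% with the pair table's scaling, and the counts are to be read against these shares. Of the subunit genes, 6 were higher and 9 lower in TDP43KD cells with TMM, 7 higher and 0 lower with the trend removed per bin, and 2 higher and 11 lower with the pair table's scaling. CACNA2D3, an alpha-2-delta subunit gene, had 173 and 172 CPM in TDP43KD libraries, against 128 and 123 CPM in control libraries (0.46, SE 0.05, adjusted p = 6.41e-09; trend removed 0.31). It lies at chr3:54122552-55074557, within 2.5 Mb of the middle of CACNA1D, in the neighbourhood with many higher pairs described above. CACNG3, of the gamma subunit family, rose by 0.29 and CACNA2D1, the alpha-2-delta subunit that binds gabapentin, by 0.20; with the trend removed CACNA2D1 did not pass (0.04, adjusted p = 0.38). CACNA2D4 fell by 0.19 with TMM and was at -0.32 with the pair table's scaling (adjusted p = 1.28e-06). It did not pass with the trend removed (-0.04, adjusted p = 0.243).

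Of the partners, 8 were higher and 10 lower with TMM, 6 higher and 3 lower with the trend removed, and 3 higher and 14 lower with the pair table's scaling, so the balance followed the scaling. ERC2, an active-zone scaffold gene, had 115 and 114 CPM in TDP43KD libraries, against 80.5 and 79.5 CPM in control libraries (0.52, SE 0.04, adjusted p = 1.39e-09; trend removed 0.35). It starts at chr3:55508311, also within 2.5 Mb of the middle of CACNA1D, so the rises of CACNA1D, CACNA2D3 and ERC2 lie in the same region. UNC13B, which primes synaptic vesicles, rose by 0.37 (trend removed 0.21), and RYR3, a ryanodine receptor gene for calcium release from the endoplasmic reticulum, by 0.35 (trend removed 0.19). CAMK2B, a subunit of calcium/calmodulin-dependent kinase, fell by 0.35 with TMM and was at -0.0080 with the trend removed (adjusted p = 0.81). Of the sodium channel genes, 4 were higher and 2 lower with TMM, 2 higher and 0 lower with the trend removed, and 1 higher and 3 lower with the pair table's scaling. Those named by size of change were SCN10A (0.32; trend removed 0.20), SCN2A (0.29; trend removed 0.08, adjusted p = 0.575), SCN11A (0.23; trend removed 0.08, adjusted p = 0.154) and NALCN (0.22; trend removed 0.04, adjusted p = 0.557). The list medians with TMM were -0.10 for the subunits, 0.0089 for the partners and 0.14 for the sodium channels, against 0.02 over all genes.

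The gene of these lists whose profile over the 4 libraries was most like a member's was found by the Euclidean distance of centred log2 CPM, and is given for 6 of the 8 members. It was SCN9A for CACNA1A (distance 0.04), CACNG5 for CACNA1C (0.03), CACNA2D1 for CACNA1D (0.04), CALM2 for CACNA1E (0.04), RRAD for CACNA1I (0.01) and CAMK2B for CACNA1H (0.13). The distance was largest for CACNA1H among these 6. With 4 libraries in 2 groups, such likeness holds little beyond the direction and size of the group difference.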

How the data were processed

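Micro-C contacts were counted in 4 libraries of SH-SY5Y cells, 2 TDP43KD and 2 control. HiC-Pro and hg38 are named in the submitters' processing notes, without versions. The library titles speak of merging; what was merged, and how pairs were filtered, is not stated in the labels. Per the file headers, the deposited table holds raw contact counts per library and pair of 50 kb bins. It also holds the authors' fold change and mean abundance on the log2 scale, an F score of their test, and their p-value, raw and adjusted.

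R 4.3.3 with edgeR 4.0.16 and limma 3.58.1 was used to fit the counts: TMM, filterByExpr (which removed 0 pairs), glmQLFit and glmQLFTest, with Benjamini-Hochberg adjustment over all 89239 pairs, or over 18697 protein-coding genes for sums of within-bin contacts, and a threshold of 0.05. The standard error is the fold change divided by the square root of F. TMM factors were 1.05 and 1.04 for TDP43KD and 0.966 and 0.944 for control libraries; the common dispersion gave a coefficient of variation of 9.01% between libraries. An exact permutation test of 2 against 2 libraries cannot go below p = 0.333. Gene bodies are those of RefSeq GRCh38.p14.

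The members, lists and rules were chosen with earlier results of these data known. The rule named, per gene, the bins of the start and the end (for CACNA1G and CACNA1H, for which the tables used give no strand, the bins of both ends), the pair and the bin with the largest change, and, from each list, the 4 genes with the largest whole-gene changes that passed. Other bins and pairs named are further calls of the 8 genes. Likeness of profile is not reported here for every member. On simulated counts for the 89239 pairs, edgeR found 98% of 100 planted changes where the log2 size was 1 and 27% of 100 where it was 0.5, with 7 false calls. The simulated counts had the common dispersion at every pair and no abundance trend, so the number of false calls need not hold for these data. Alternatives were DESeq2 1.42.0, loess removal of the abundance trend, TMM within distance classes, fits without the filter, with the replicate number as a block and without each library in turn, an adjusted p under 0.01, the authors' table, and other definitions of a gene's contacts; for whole genes, trend removal per bin and the pair table's scaling were added after seeing the data. Tables and plots were made with Python 3.11.15 (pandas 2.3.3, numpy 2.4.6, matplotlib 3.10.9).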

Additional observations from a re-analysis of the deposited data

How the results depend on the processing

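The count of differing pairs in the whole table was 14469 and ran from 4910 to 16764 when each library was left out in turn, with the lowest without TDP43KD replicate 1 and 6373 without TDP43KD replicate 2; it was 8738 at an adjusted p under 0.01. For the pairs of the 8 genes (48) the leave-one-out range was 20 to 53, for their within-bin contacts (26) 16 to 29, and for whole genes (6) 2 to 7. Limited to pairs with both bins on the gene, within-bin contacts included, 31 of 128 differed, the 17 calls with 1 bin on the gene being left out. DESeq2, loess removal of the abundance trend and no filter kept these counts within 1.5 times, as did TMM within distance classes and the authors' deposited table for the counts of pairs; those 2 were not run for whole genes.

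Directions turned in these cases among the values of the named bins, pairs and whole genes, and the cause was not tested. The whole-gene fold change of CACNA1C was -0.050 with the pair table's scaling and -0.0635 over bins wholly inside the gene. That of CACNA1E was 0.21 with a loess fit on gene sums, and ran from -0.0434 to 0.0091 with single libraries left out, 0.0019 without TDP43KD replicate 2. That of CACNA1G was 0.12 with the trend removed per bin. With the trend removed, and equally in the authors' deposited table, the start bin of CACNA1C was at 0.0336, the end bin of CACNA1D at 0.0685, and the bins of CACNA1G at 0.15 and 0.0855. Of the 48 called pairs, 5 turned with the trend removed: the last 3 of these, the CACNA1C bin before its end bin (-0.19 with TMM, 0.03) and the pair between the bins of CACNA1G (-0.20 with TMM, 0.0030).

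The labels do not say that a replicate number marks a shared batch, and deviations of same-numbered libraries correlated at 0.02 over pairs and 0.12 over genes. With the replicate number as a block, 15663 pairs, 51 pairs of the 8 genes, 27 within-bin contacts and 6 whole genes passed. Precision is limited by 2 libraries a group; pairs of low abundance rest on the fewest contacts and had the largest standard errors.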
